A study of Sus scrofa with 6 samples.

Results

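Genes of the motile cilium were followed in the cervical cord of 6 male pigs, all 140 days old. They were chosen by deposited gene name alone: the axonemal dynein heavy and intermediate chains (DNAH and DNAI), the numbered cilia and flagella associated proteins (CFAP), radial spoke proteins (RSPH), tektins (TEKT), FOXJ1, SPAG6, SPAG17, CCDC39 and CCDC40. This gave 54 of the 28965 genes in the files, and SPAG17 names none of them. Messenger RNA was selected and sequenced from 3 wild-type animals and 3 animals with a UBE3A deletion inherited from the mother, 1 library per animal. UBE3A, a ubiquitin ligase, is imprinted in neurons, where the maternal copy is the one used; the deletion is in every cell of the animal, and the paternal copy remains. No other allele or agent is labelled in either group. The labels call the animals separate, so they are the replicates; the replicate numbers only name them.

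A motile cilium is a shaft of doublet microtubules ringed around a central pair, moved by dynein arms on the doublets and steered by radial spokes that reach toward the central pair. In the cord the cells that carry such cilia are the ependymal cells lining the central canal, where beating cilia move cerebrospinal fluid. The forkhead transcription factor FOXJ1 switches on the motile cilium programme and is used as a marker of these cells. Many parts of the shaft are made in few other cells of the cord, while some CFAP proteins also serve cilia that do not beat or have other uses.

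Libraries held from 17181003 to 22492366 exon reads. Levels below are CPM, counts relative to the library total, scaled by TMM, a correction for library make-up. For UBE3A, the check of the labels, wild-type replicates 1, 2 and 3 gave 57.0, 65.5 and 60.6 CPM; deletion replicates 1, 2 and 3 gave 21.4, 27.1 and 21.4 CPM, so no library went against its label. UBE3A fell by 1.39 on the log2 scale (SE 0.13; edgeR quasi-likelihood test, Benjamini-Hochberg adjusted p 0.0253). This call was lost without wild-type replicate 1 (adjusted p 0.150) and without deletion replicate 1 (0.0701), 2 (0.0871) or 3 (0.0821) in the same edgeR test. It was also lost with the ID prefix as a block (adjusted p 0.0526) and in the animals of ID prefix 15 alone (0.347). It held without wild-type replicate 2 (0.0469) or 3 (0.00500), and by DESeq2 (adjusted p 5.38e-16). The log2 fold change lay between -1.51 and -1.33 with any 1 library left out. Of all 14566 genes, 0 were called without wild-type replicate 1, deletion replicate 2 or deletion replicate 3. Wild-type replicate 3 stood apart from the rest, with mitochondrial mRNAs at 5.88% of reads against 9.02 to 12.5% in the other 5, and HOXC8, a gene patterned along the cord, at 1.97 CPM against 23.2 to 32.1. HOXC8 was chosen after its values were seen. The sample titles name both brain and cervical spinal cord, and the tissue label, cervical spinal cord, was followed here. The sources used here do not say at which level of the cord each piece was cut or how much central canal it held, and the part of either in the results was not tested.

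FOXJ1 (ENSSSCG00000017187) varied several-fold between animals of the same genotype and did not separate the genotypes. Wild-type replicates 1, 2 and 3 held 159, 195 and 51 FOXJ1 reads; deletion replicates 1, 2 and 3 held 39, 51 and 205. The scaled levels were 9.33, 8.46 and 2.34 CPM in wild type against 1.95, 2.68 and 8.86 CPM in the deletion group; every set of 3 values below keeps this order of replicates. Wild-type replicates 1 and 2 and deletion replicate 3 lay high, the other 3 low, and the groups overlapped. The highest library of a genotype exceeded its lowest 3.99-fold in wild type and 4.55-fold in the deletion group. The mean level was 6.71 ± 3.81 CPM (SD, n = 3) in wild type and 4.49 ± 3.80 CPM (SD, n = 3) with the deletion. The log2 fold change of -0.57 (95% interval -2.13 to 1.00) did not pass (edgeR quasi-likelihood adjusted p 0.718). Because tissue was measured in bulk, fewer ependymal cells and less FOXJ1 RNA per cell cannot be told apart, here and for every gene below.

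**Figure D1:**
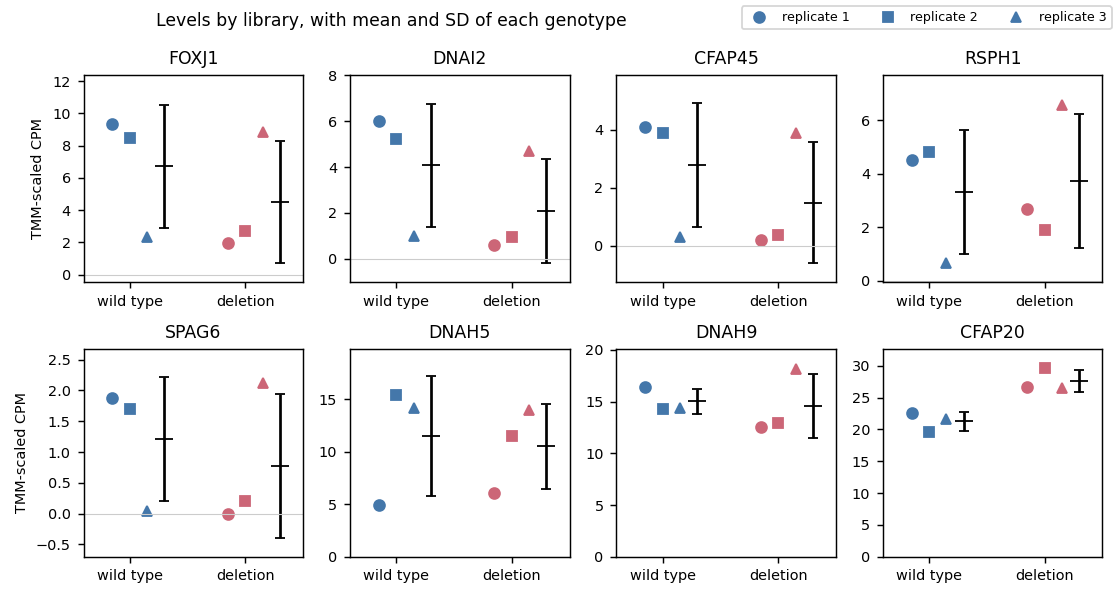
TMM-scaled CPM (y axis) of 8 genes in 3 wild-type and 3 deletion libraries (x axis); symbols are replicates, black marks the mean with its SD. FOXJ1, DNAI2, CFAP45, RSPH1 and SPAG6 spread widely inside each genotype; DNAH9 and CFAP20 do not, and DNAH5 is lowest in replicate 1 of both.

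Of the 54 genes, 46 passed the filter on low counts and were tested; the other 8, with 2 to 46 reads over all libraries, were CFAP43, CFAP58, CFAP157, CFAP221, CFAP299, RSPH14, TEKT2 and TEKT5. None of the 46 rose or fell by edgeR's quasi-likelihood test at an adjusted p under 0.05, where 1.02% of all 14566 tested genes were called, 0.178% higher and 0.844% lower in the deletion group. At an unadjusted p under 0.05 by the same test there were 3 of 46, against 20.2% of all genes: CFAP20 and CFAP36, with positive estimates, and CFAP100, with a negative one. DESeq2 also called 0, against 9.30% of all genes, with 3 at an unadjusted p under 0.05, against 19.6%. Of the 52 genes given a false discovery rate in the authors' deposited table, 0 came under 0.05, against 7.20% of all genes given one. The genotypes did not overlap in 3 of the 46 genes, against 26.4% over all tested genes.

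Of the 46 log2 fold changes, 36 were negative and 10 positive, beside 6300 negative among all 14566 tested genes. The median was -0.36 beside 0.05 over all tested genes. Under an average log2 CPM of 2, 30 of 34 cilia genes were negative, beside 1693 of 2984 of all genes. At 2 or more, 6 of 12 were negative, with a median of -0.0002, beside 4607 of 11582 of all genes. Single estimates ran from -1.22 for CFAP100 to 0.46 for CFAP251. The share of negative values differed with the animals compared. Between the 2 animals with ID prefix 14, one of each genotype, the deletion library was lower in 37 of 46 genes; among the 4 animals with prefix 15 the deletion mean was lower in 16, and the edgeR fit to those 4 gave negative estimates in 21. With the prefix 15 animals alone the median was 0.02. What the prefix stands for is not stated. Leaving out 1 library at a time moved the median from -0.82 (without deletion replicate 3) and -0.72 (without wild-type replicate 3) to -0.12 (without deletion replicate 1), -0.14 (without wild-type replicate 1), -0.16 (without wild-type replicate 2) and -0.20 (without deletion replicate 2).

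**Figure D2:**
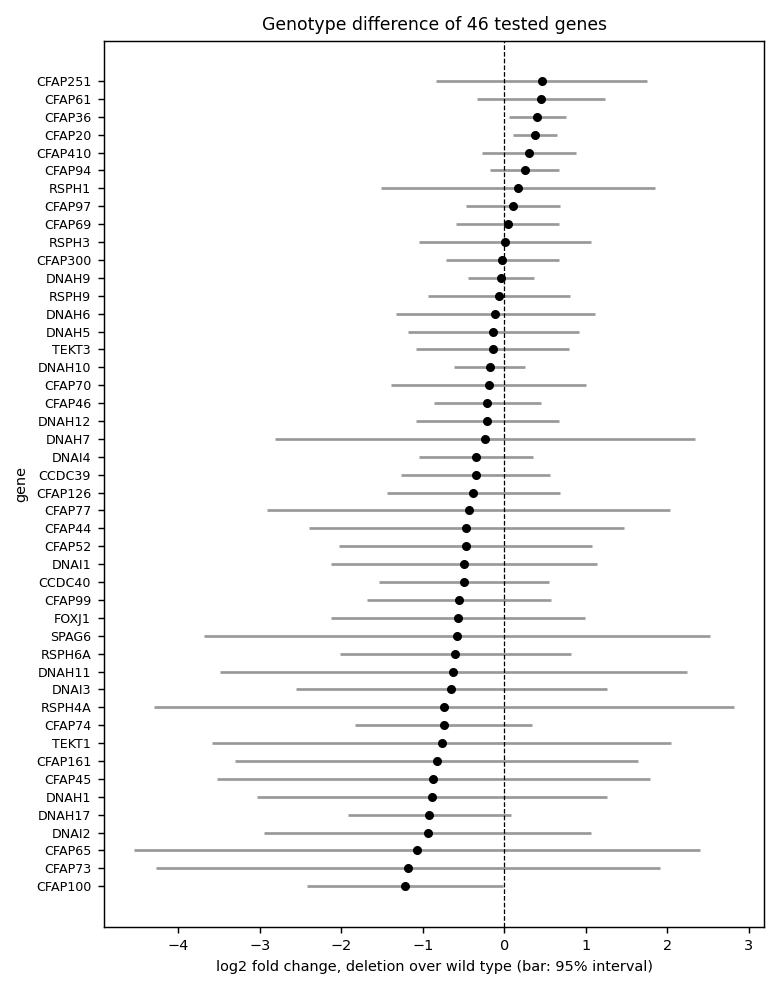
Log2 fold change, deletion over wild type (x axis), of the 46 tested genes (y axis), with bars for the 95% interval. Most points lie left of 0 and nearly all bars cross it; the intervals of CFAP20 and CFAP36 lie above 0 and that of CFAP100 below, before adjustment.

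Among the outer arm dyneins, which drive the beat, the most abundant heavy chain was steady and the intermediate chains were not. DNAH9, a heavy chain of the outer arm, stood at 16.4, 14.2 and 14.4 CPM in wild type and 12.6, 13.0 and 18.2 CPM in the deletion group. The log2 fold change was -0.04 (95% interval -0.45 to 0.36). DNAI2, an intermediate chain of the same arm, read 5.99, 5.21 and 1.01 CPM in wild type and 0.599, 0.945 and 4.71 CPM in the deletion group, the same 3 libraries being high as for FOXJ1. DNAI2 differed 5.93-fold between wild-type libraries and 7.86-fold between deletion libraries. DNAI1, its partner chain, was 1.99, 1.65 and 0.275 CPM in wild type and 0.649, 0.577 and 1.51 CPM in the deletion group. DNAH11, a heavy chain placed near the base of the cilium, had 22, 51 and 1 reads in wild type and 2, 3 and 46 in the deletion group.

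DNAH5, the other main outer arm heavy chain of airway and ependymal cilia, followed another order. Its levels were 4.93, 15.4 and 14.1 CPM in wild type and 6.04, 11.4 and 14.0 CPM in the deletion group. The 2 lowest libraries were the animals of ID prefix 14, and wild-type replicate 3, low in FOXJ1, was among the high ones. DNAH17, known from the outer arms of the sperm tail, was the 1 tested gene of the 46 that was lower in every deletion library than in any wild-type library, against 11.2% of all genes in that direction. DNAH17 was 3.17, 3.47 and 2.53 CPM in wild type and 1.80, 0.682 and 2.33 CPM in the deletion group (log2 fold change -0.92, SE 0.43, edgeR quasi-likelihood adjusted p 0.289). All 6 tested outer arm genes had negative estimates and none passed; their median was -0.56.

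The inner arm dyneins, which shape the bend, held both kinds of gene. DNAH10, a heavy chain of the inner arm, was 6.40, 7.25 and 5.83 CPM in wild type and 6.34, 4.99 and 5.88 CPM in the deletion group, and no library departed far from the rest. DNAI4, an intermediate chain of the inner arm, lay between 1.68 and 3.11 CPM in all 6. DNAH6, another inner arm heavy chain, read 3.23, 2.69 and 1.29 CPM in wild type and 1.30, 1.42 and 3.89 CPM in the deletion group. DNAH1, of the same class, had 42, 46 and 4 reads in wild type and 8, 6 and 40 in the deletion group, a 13.4-fold difference in scaled level between wild-type replicates 1 and 3. All 7 inner arm genes had negative estimates, with a median log2 fold change of -0.23, and none passed the threshold.

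CCDC39 and CCDC40 form the ruler that sets the spacing of inner arms and doublet links, and their genotypes overlapped. CCDC39 was 2.35, 1.65 and 0.964 CPM in wild type and 1.20, 1.10 and 1.56 CPM in the deletion group; CCDC40 was 5.40, 4.21 and 1.65 CPM and 2.65, 1.84 and 3.46 CPM. Wild-type replicate 3 was the lowest library for both. CFAP100, known in the alga Chlamydomonas as a regulator of inner arms, had the largest negative estimate of the 46. Its level was 11.3, 9.38 and 3.90 CPM in wild type and 1.50, 3.83 and 5.19 CPM in the deletion group, so the genotypes overlapped. The log2 fold change was -1.22 (SE 0.51, edgeR quasi-likelihood adjusted p 0.241). The authors' deposited table lists it at a signed fold of -2.31 and a false discovery rate of 0.0667, the lowest among these genes. CFAP44, which ties an inner arm to the doublet, had 51, 55 and 7 reads in wild type and 8, 23 and 57 in the deletion group. The 6 tested genes of the arm bases and the ruler had a median log2 fold change of -0.48, all 6 negative and none past the threshold.

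Radial spoke genes differed among themselves in how far they ranged. RSPH4A, a spoke head protein, had 24, 37 and 0 reads in wild type and 0, 0 and 40 reads in the deletion group. Against a floor of 3 reads in the library at 0, wild-type replicate 2 was at least 11.7-fold above wild-type replicate 3, and deletion replicate 3 at least 11.5-fold above the lowest library of its genotype. RSPH1, also of the spoke head, was 4.52, 4.82 and 0.643 CPM in wild type and 2.70, 1.89 and 6.57 CPM in the deletion group. RSPH9, another head protein, showed no such split, with 2.82, 1.30 and 1.97 CPM in wild type and 1.40, 2.10 and 2.29 CPM in the deletion group. CFAP61, of the complex at the spoke base, was 1.35, 2.47 and 1.52 CPM and 2.05, 2.26 and 3.02 CPM. The 7 tested spoke genes had 4 positive and 3 negative estimates, a median of 0.01 and none past the threshold.

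In the central apparatus, the pair of single microtubules with their projections, SPAG6 and CFAP65 had 0 or 1 read in some libraries and many in others. SPAG6, a central pair protein, had 32, 39 and 1 reads in wild type and 0, 4 and 49 reads in the deletion group. CFAP65 had 37, 49 and 0 reads in wild type and 0, 1 and 44 in the deletion group. The high and low libraries were those of FOXJ1. CFAP46, the most abundant of this group by CPM, was 16.6, 17.4 and 7.85 CPM in wild type and 11.8, 11.7 and 12.7 CPM in the deletion group, low in wild-type replicate 3 alone. CFAP74 read 6.40, 6.42 and 2.07 CPM in wild type and 2.50, 2.15 and 4.19 CPM in the deletion group, and CFAP69 lay between 4.44 and 7.91 CPM in all 6. Of 6 tested genes 5 had negative estimates, the median log2 fold change was -0.57, and none passed the threshold.

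Proteins inside the doublet microtubules gave the clearest contrast between members. CFAP45 (ENSSSCG00000006394), a filament lining the doublet wall, had 70, 90 and 7 reads in wild type and 4, 7 and 90 in the deletion group, or 4.11, 3.91 and 0.321 CPM against 0.200, 0.367 and 3.89 CPM. That is a 12.8-fold difference between wild-type libraries and a 19.5-fold difference between deletion libraries. CFAP126, known in the mouse as Flattop, read 5.52, 4.47 and 2.71 CPM in wild type and 2.00, 2.15 and 5.53 CPM in the deletion group. CFAP20, a protein of the junction between the doublet tubules, read 22.5, 19.7 and 21.6 CPM in wild type and 26.7, 29.6 and 26.4 CPM in the deletion group. The 2 genotypes did not overlap for CFAP20, but the difference of 0.38 (SE 0.12) on the log2 scale did not pass (edgeR quasi-likelihood adjusted p 0.129). CFAP52, another protein of the doublet wall, and CFAP161 were chosen after their values were seen. CFAP52 read 3.11, 3.21 and 0.826 CPM in wild type and 0.599, 1.52 and 2.98 CPM in the deletion group, and CFAP161 read 2.17, 1.65 and 0.321 CPM and 0.0999, 0.157 and 1.99 CPM. Both were high in the libraries that were high in CFAP45. The tektin TEKT1 had 17, 40 and 0 reads in wild type and 4, 2 and 29 in the deletion group. TEKT3 and CFAP77 were also chosen after their values were seen. TEKT3 read 0.939, 1.17 and 0.551 CPM in wild type and 0.649, 0.945 and 0.821 CPM in the deletion group. TEKT3 thus did not follow the order of CFAP45. CFAP77 read 3.05, 1.56 and 0.184 CPM and 1.55, 0.0525 and 1.86 CPM, with deletion replicate 1 near wild-type replicate 2. Of 8 tested genes 7 had negative estimates, the median was -0.45, and none passed.

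The other 5 tested genes were given no place in the shaft. The median of their pooled SD of log2 CPM within genotype, 0.29, was the lowest of the roles. Singly they ran from 0.19 to 0.38, while CFAP20 at 0.09 and DNAH10 at 0.17 were lower. Level was not matched between roles. CFAP36 stood at 28.9, 30.3 and 22.2 CPM in wild type and 32.6, 39.4 and 36.0 CPM in the deletion group, without overlap (log2 fold change 0.41, SE 0.15, edgeR quasi-likelihood adjusted p 0.186). CFAP36 and CFAP20 were the 2 of 46 genes higher in every deletion library than in any wild-type library, against 15.2% of all genes. CFAP300, known for its part in assembling dynein arms and chosen after its values were seen, was 2.05, 2.78 and 2.39 CPM in wild type and 2.15, 1.84 and 3.11 CPM in the deletion group. CFAP410, known in people from inherited disease of the retina and skeleton, lay between 10.5 and 22.3 CPM. By length-scaled level, the mean TPM over 6 libraries was highest for CFAP410 at 24.0, CFAP36 at 22.7 and CFAP126 at 18.5, with CFAP20 at 11.0 and FOXJ1 at 6.85. The lowest of the tested genes were 3 dynein heavy chains, DNAH7 at 0.120, DNAH11 at 0.194 and DNAH1 at 0.246 TPM, while DNAH9 stood at 2.98 TPM.

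Summed by role on the length-scaled TPM, the same libraries stood out in most roles. The microtubule inner proteins summed to 48.9, 46.3 and 29.9 TPM in wild type and 24.7, 26.0 and 56.2 TPM in the deletion group. The arm base and ruler genes summed to 25.7, 20.5 and 8.65 TPM and 5.12, 7.69 and 15.9 TPM, and the central apparatus to 15.2, 15.4 and 7.31 TPM and 7.93, 7.25 and 13.0 TPM. In these 3 roles wild-type replicates 1 and 2 and deletion replicate 3 held the highest sums. The genes of no role list had other highest libraries, the 3 of the deletion group, with 55.8, 63.6 and 58.6 TPM in wild type and 71.1, 67.8 and 70.1 TPM in the deletion group.

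**Figure D3:**
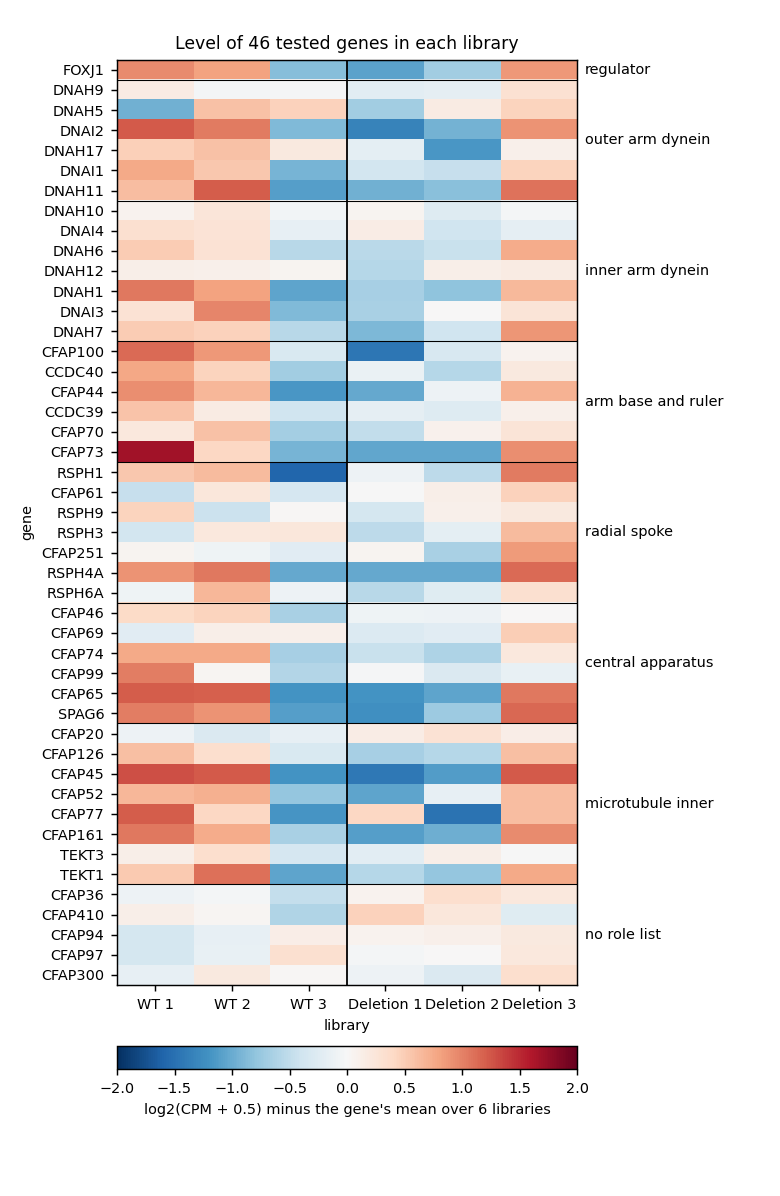
Colour gives log2(CPM + 0.5) of each of the 46 tested genes (rows, by role) in each library (columns) minus the gene's mean over the 6 libraries. Red blocks fill wild-type replicates 1 and 2 and deletion replicate 3 in most roles, and the genes of no role list at the foot are pale.

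Counted over all 46 tested genes, the libraries differed in how often they ranked high. Deletion replicate 3 was among the 3 highest libraries in 40 genes and wild-type replicates 1 and 2 in 37 each. Deletion replicate 2 was among them in 9, wild-type replicate 3 in 8 and deletion replicate 1 in 7. Over all tested genes, each library was among the 3 highest in 44.0 to 53.4%. With ties counted in each library, the lowest level fell in wild-type replicate 3 in 19 genes, in deletion replicate 1 in 17 and in deletion replicate 3 in 0. Over all tested genes these libraries were lowest in 20.7, 13.3 and 10.6%. In wild-type replicate 3, 8 of the 46 genes had 3 reads or fewer, in deletion replicates 1 and 2 it was 7 each, and in the other 3 libraries 0.

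The spread inside a genotype and the precision of the comparison were set beside those of all tested genes. The pooled SD of log2 CPM within genotype had a median of 0.73 over the 46 genes and of 0.22 over all tested genes. It was over 1 in 18 of the 46 (39.1%), against 2.55% of all genes. Low counts raise this value, so the 34 genes with an average log2 CPM under 2 were set beside all 2984 tested genes under that level: 17 of the 34 had an SD over 1, against 9.99% of all. The biological coefficient of variation, from which edgeR removes counting noise, had a median of 0.43 in the 46 genes and 0.18 over all. It too differed with level. Under an average log2 CPM of 2 its median was 0.51 in the cilia genes and 0.33 in all genes. At 2 or more it was 0.23 and 0.16. The largest SDs were 2.49 for CFAP65, 2.39 for RSPH4A and 2.22 for SPAG6, and the smallest 0.09 for CFAP20. The standard error of a log2 fold change had a median of 0.50 against 0.18 over all genes. Under an average log2 CPM of 2 these medians were 0.64 and 0.41, and at 2 or more 0.25 and 0.16.

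**Figure D4:**
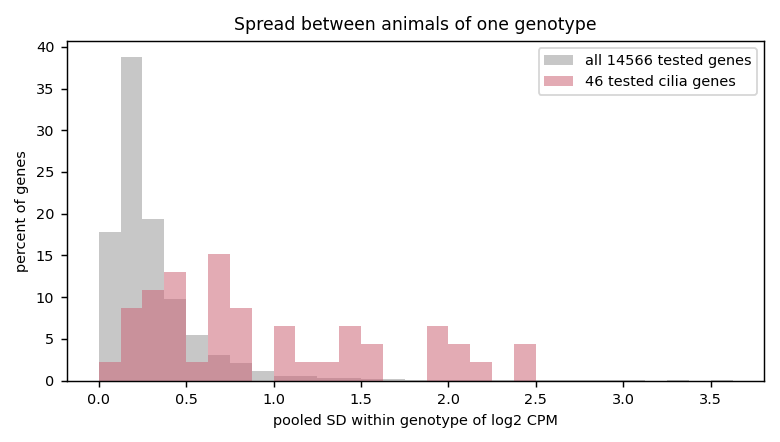
Percent of genes (y axis) by pooled SD of log2 CPM within genotype (x axis), for all 14566 tested genes and for the 46 cilia genes. The cilia genes, with a median of 0.73, reach far to the right of the bulk of genes, whose median is 0.22.

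Genes outside the name rule showed how far the same library order extended. Of 66 other genes of the motile shaft and its assembly, 49 were found and 42 tested, none passed in either direction, and the median log2 fold change was -0.18 with 30 negative. DRC7 and DRC1, of the nexin-dynein complex and chosen after their values were seen, stood at 2.58, 3.17 and 0 CPM and 1.64, 1.95 and 0.0918 CPM in wild type. In the deletion group they stood at 0.0499, 0.157 and 3.28 CPM and 0.300, 0.157 and 1.64 CPM, with the same 3 libraries high as for FOXJ1. The 2 most abundant, TPPP3, a tubulin-binding protein that oligodendrocytes and neurons may also carry, and DNAL1, a dynein light chain, gave log2 fold changes of 0.74 and 0.14 (edgeR quasi-likelihood adjusted p 0.1004 and 0.617). The summed level of the 49 found genes was 360.5 to 434.6 CPM in wild type and 444.5 to 494.4 CPM in the deletion group, TPPP3 being the largest term. The lowest library was wild-type replicate 3 in 17 of the 42 genes, deletion replicate 1 in 11 and deletion replicate 3 in 0. The shares over all tested genes were 20.7, 13.3 and 10.6%. Among the 42, wild-type replicate 1 was in the 3 highest libraries in 32, wild-type replicate 2 in 31 and deletion replicate 3 in 28. Deletion replicate 2 was there in 13, and deletion replicate 1 and wild-type replicate 3 in 11 each. The SD within genotype had a median of 0.46 and was over 1 in 8 of the 42, DRC7 and DRC1 among them, against 2.55% of all genes. Level was not matched for this list. Of 19 genes whose current symbol fits the name rule while the deposited name does not, SPAG17 among them with 0 to 3 reads per library, 12 were tested and none passed, with 6 positive and 6 negative estimates, a median log2 fold change of -0.01 and no SD within genotype over 1. DNAH2, an inner arm heavy chain of that set, had the largest SD of the 12, 0.84, and was chosen after its values were seen: it read 2.00, 2.56 and 0.551 CPM in wild type and 0.549, 0.682 and 1.12 CPM in the deletion group.

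Regulators upstream of the cilium gave a mixed picture. GMNC, a geminin relative that starts the multiciliated cell fate and was chosen after its values were seen, was 0.763, 1.69 and 0.413 CPM in wild type and 0.0999, 0.157 and 1.60 CPM in the deletion group. RFX3 and RFX2, factors that act beside FOXJ1 and were also chosen after their values were seen, stayed between 10.2 and 14.2 CPM and between 6.98 and 11.6 CPM. PLK4 and E2F4, the most abundant of the list, gave log2 fold changes of 0.24 and -0.09. None of the 8 tested regulators passed, with a median of -0.12, and CDC20B had no reads. Genes of transport in all cilia, motile or not, varied less within a genotype: among 37 tested the median SD was 0.17 and no SD exceeded 1. Level was not matched here. At an average log2 CPM of 2 or more the median SD was 0.19 over all genes and 0.32 in the cilia genes. KIF17 and BBS12, the least abundant of the transport list, had SDs of 0.80 and 0.59. The genotypes did not overlap in 5 of the 37, against 26.4% of all tested genes. No gene of that list passed, and the median log2 fold change was 0.01. Its summed level was 731.5 to 742.0 CPM in wild type and 772.0 to 905.4 CPM in the deletion group. KIF17, a kinesin chosen after its values were seen, read 1.76, 1.52 and 0.597 CPM in wild type and 0.799, 0.630 and 2.03 CPM in the deletion group, with the same 3 libraries high as for FOXJ1. KIF3A and BBS4, the 2 most abundant genes of the list, gave 0.78 and 0.02.

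Markers of ependyma outside the name rule were divided. Of 24 listed, 8 are also on the list of other motile shaft genes, 22 were found and 18 were tested; none passed and the median log2 fold change was -0.18. CCDC153, used as a marker of ependymal cells in the mouse and chosen after its values were seen, had 31, 36 and 7 reads in wild type and 5, 8 and 40 in the deletion group. IGFBPL1, chosen in the same way, was 18.2, 21.1 and 1.51 CPM and 2.05, 1.73 and 27.8 CPM; both were high in the same 3 libraries as FOXJ1. Over the 18 tested genes, wild-type replicate 1 was among the 3 highest libraries in 16, wild-type replicate 2 in 11 and deletion replicate 3 in 13. Wild-type replicate 3 was among them in 7, deletion replicate 1 in 5 and deletion replicate 2 in 2, and the SD within genotype was over 1 in 5 of the 18. ZMYND10, DYNLRB2, AK7 and MORN5, which are also on the motile shaft list, and CAPSL and ARMC3 had the same 3 highest libraries. The remaining tested genes had other highest libraries. They were S100A6 and TPPP3, the most abundant on the list, and RARRES2, ANXA1, CAPS, ENKUR, TMEM107, CCDC146, SPAG16 and RIIAD1. All of these but S100A6 and TPPP3 were chosen after their values were seen. TMEM212, a further marker, had no reads in any library, and MIA and HDC stood at 0.117 CPM or less. The summed level of the list, which S100A6 and TPPP3 dominate, ran from 524.6 to 688.9 CPM in wild type and from 545.1 to 599.1 CPM in the deletion group. The markers outside the name rule were thus detected in part, 18 of 24 at a level that could be tested.

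In summed level, the markers of meninges, vessels, Schwann cells and neurons did not overlap between the genotypes, while those of the other cells did. Of 10 meninges and fibroblast genes 6 fell, COL1A1 and COL1A2 by 2.83 and 2.35 on the log2 scale, and their summed level was 2537 to 3227 CPM in wild type and 436.3 to 738.1 CPM in the deletion group. The 10 calls in this paragraph rest on all 6 libraries: over all genes the same test made 149 calls with them and from 0 to 741 with 1 library left out. Of 10 vessel genes 3 fell, and sums were 740.1 to 3026 and 363.2 to 504.0 CPM; of 8 Schwann cell genes PRX fell, and sums were 1299 to 4968 and 600.1 to 816.1 CPM. Neuron genes summed to 2338 to 6356 CPM in wild type, lowest in replicate 3, and to 8964 to 18910 CPM in the deletion group, with 11 of 11 estimates positive and none past the threshold. Astrocyte sums were 20480 to 24490 and 20320 to 26020 CPM, and those of microglia 808.9 to 842.0 and 747.4 to 819.6 CPM. Oligodendrocyte sums were 75950 to 131400 and 86640 to 129400 CPM. Choroid plexus genes summed to 86.3 to 110.9 and 77.7 to 91.8 CPM, with OTX2 at 0 reads and TTR at 2.35 CPM or less. None of these sums had deletion replicate 3 and wild-type replicates 1 and 2 as its 3 highest libraries; neither did the sums of the ependyma list and of the other motile shaft list. The part of these cells in the cilia results was not tested.

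**Figure D5:**
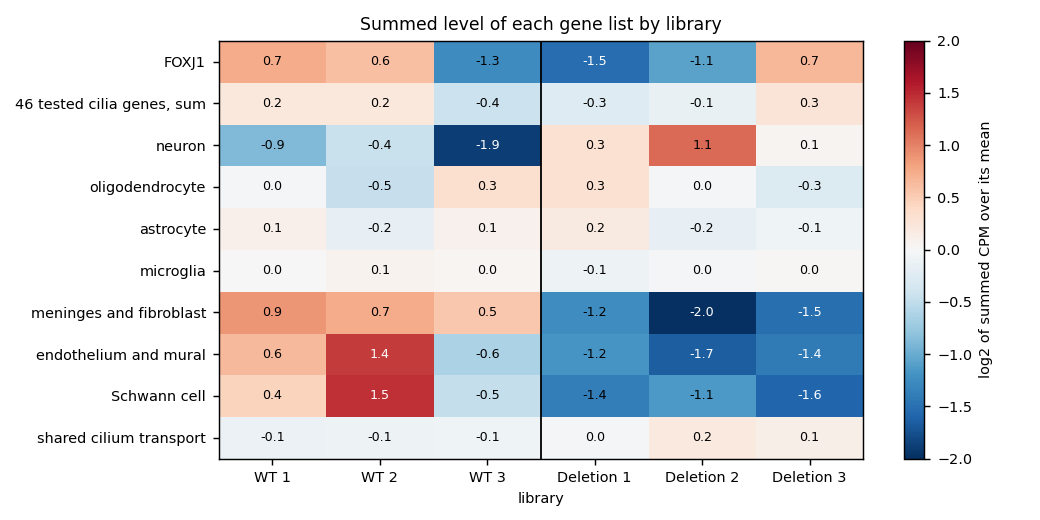
Log2 of summed CPM over its mean across libraries, for FOXJ1, the 46 cilia genes and lists of other genes (rows) in each library (columns). FOXJ1 is high in wild-type replicates 1 and 2 and deletion replicate 3; meninges, vessel and Schwann cell sums are higher in the wild-type libraries; the sum of the 46 genes, in which steady genes such as CFAP36 and CFAP20 are the most abundant, varies less than FOXJ1.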

How the data were processed

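Per the labels' protocols, RNA came from flash-frozen cord and was made into stranded poly(A) libraries read as paired ends on a NovaSeq. No coordinates are printed, because aligner, counter, annotation and build are not stated in the sources used here; nor is use of strand in counting. The authors deposited whole-number counts of exon reads per gene, with TPM, RPKM and a CPM column that is a signal scaled by a factor per library; TPM was used for levels between genes and the last 2 for nothing. Their deposited comparison holds signed folds (a score), p-values and false discovery rates. Genes passing filterByExpr were scaled by TMM and tested in edgeR 4.0.16 (R 4.3.3) by the robust quasi-likelihood test, deletion against wild type, with Benjamini-Hochberg adjustment over all 14566 genes; SEs derive from its statistic. The scripts were tested on simulated data. Alternatives were 3 scalings, 2 filters, DESeq2 1.42.0, the ID prefix and leaving out libraries. A floor of 3 reads is 0.130 to 0.176 TMM-scaled CPM and covers counting error only. No 2 libraries agreed within sampling noise (chi-square per degree of freedom at least 28.1 in 15 pairs).

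Members and lists were chosen with earlier results of these data known. The named genes are FOXJ1, SPAG6, CCDC39 and CCDC40, the 3 most abundant of each role, the 4 with the smallest p and the 2 most abundant of each other list; further named genes, among them RSPH4A, CFAP65, CFAP251, CFAP410, DNAH1, DNAH7, DNAI1, DNAH11, TEKT1 and the untested genes, were chosen after their values were seen. Of the symbols, 16246 came from the files and 785 from a name table. Promoter motifs were not analysed here. No correlation with FOXJ1 is given, because its levels fall into separate clusters.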

Additional observations from a re-analysis of the deposited data

How the results depend on the processing

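The count of called cilia genes was 0 in each direction under every alternative run. The runs were total-count, RLE and upper-quartile scaling, no filter, a stricter filter (24 genes tested) and DESeq2. The rest were the ID prefix as a block, the prefix 15 animals alone and each library left out in turn. Cilia genes at an unadjusted p under 0.05 ranged from 0 of 46 without deletion replicate 2 to 11 of 46 without deletion replicate 3. Over all 14566 tested genes those fits gave 1840 and 2326. The median log2 fold change, -0.36 with all libraries and TMM, was -0.44 to -0.41 under the other scalings and -0.82 to -0.12 with a library left out. Signs turned as follows, and the cause was not tested. CFAP69 gave -0.039 under total-count and -0.031 under upper-quartile scaling. In the prefix 15 animals alone FOXJ1 gave 0.021, SPAG6 0.35, CFAP44 0.35, DNAH6 0.35, CFAP126 0.038, DNAH9 0.063 and RSPH9 0.37. With 1 library left out, CFAP44 ranged from -1.29 to 0.0074, CFAP69 from -0.32 to 0.19, DNAH6 from -0.86 to 0.16, DNAH9 from -0.27 to 0.052, RSPH9 from -0.32 to 0.24, DNAH5 from -0.49 to 0.14 and RSPH1 from -0.59 to 0.53. The genes called over all numbered 100 to 197 under the other scalings, 1355 by DESeq2, 237 without a filter, 131 with the stricter one, 3 with the prefix block and 0 in prefix 15 alone, against 149. No paired analysis was possible because the labels give the animals no replicate numbers shared between genotypes. Differences between libraries that both hold 3 reads or fewer, 0.130 to 0.176 TMM-scaled CPM, were not detectable at this depth.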
